A study of Arabidopsis thaliana with 12 samples.

Results

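The CCA1, LHY and REVEILLE (RVE) genes encode single-repeat MYB transcription factors of the plant circadian clock. Transcript levels of 10 of these genes, *CCA1* (AT2G46830), *LHY* (AT1G01060), *RVE1* (AT5G17300), *RVE2* (AT5G37260), *RVE3* (AT1G01520), *RVE4* (AT5G02840), *RVE5* (AT4G01280), *RVE6* (AT5G52660), *RVE7* (AT1G18330) and *RVE8* (AT3G09600), were examined by their locus identifiers in RNA-seq tables of *Arabidopsis thaliana* seedlings. All 10 genes had an entry in each table, among 22318 genes in the first model fit, of *det1-1* and WT seedlings from darkness and light, and 22400 in the second, of 4 genotypes in light.

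The series compares wild-type (WT) seedlings with mutants of *DET1* and *UBP22*, in order to ask how DET1, a repressor of light responses, and UBP22, a histone H2B deubiquitinase, affect gene expression. All seedlings were of the Columbia-0 background, 5 days old and grown on agar medium without sugar. Seedlings grown in light (L) were kept in days of 16 h light and 8 h dark, at 23 and 19°C and a light intensity of 100 µmol m-2 s-1. Per the labels, dark-grown seedlings (D) had the same temperature cycle in constant darkness, whereas the study's general methods give a constant 23°C for such conditions, so that the temperature of the dark-grown groups is uncertain. The 6 groups are WT (L), WT (D), *det1-1* (L), *det1-1* (D), *ubp22-1* (L) and *det1-1ubp22-1* (L), with 2 biological replicates each and RNA of a small pool of seedlings per library. The allele *det1-1* is a partial loss-of-function allele, *ubp22-1* is 1 T-DNA insertion line, and the double mutant was made by crossing them. The study's general methods give a single harvest time, in the middle of the light period. Levels of clock genes follow the time of day, so every value here holds for that time alone, and a shift in phase and a change in overall level cannot be told apart. The dark-grown groups had no light-dark cycle. In comparisons of light with darkness, light itself and a daily light cue for the clock therefore cannot be told apart.

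In the plant clock, CCA1 and LHY accumulate around dawn and repress genes that peak in the evening, many of which carry a DNA element known as the evening element. The products of evening genes and of the PRR genes repress *CCA1* and *LHY* in return. RVE8 and its closest relatives RVE4 and RVE6 bind the same element but activate evening genes, together with the LNK coactivators, whereas RVE1 links the clock to auxin synthesis and hypocotyl growth. RVE2, also called CIR1, and RVE7, also called EPR1, are close relatives of RVE1. RVE3 and RVE5 belong to the RVE8 group and have smaller known roles in clock pace.

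Most promoters of the 10 genes held the G-box (CACGTG, the same on both strands), an element bound by several light-signalling factors such as the PIF and HY5 proteins. It was present between 250 bases before and 50 bases after the annotated start in 7 of the 10 genes, at 8 positions, against 7.68% of 27438 protein-coding genes in the RefSeq TAIR10.1 assembly. The evening element (AAAATATCT, either strand) was found in the same window of *RVE7* alone, against 2.82% of all genes, and the CCA1-binding site (AAAAATCT, either strand) in *RVE2* and *RVE6*, against 7.88%. These motifs do not overlap with each other in the members. In the 1000 bases before the start, 7 of the 10 genes held a G-box against 14.8% of all genes, 3 a CCA1-binding site against 21.1%, and *RVE7* an evening element against 7.24%. A match describes letters only and does not show that a factor binds there.

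The 250 bases before the start of *CCA1* and *RVE1* are shown whole because these genes had the most similar levels over the 6 groups after *RVE5* and *RVE6*, as described further on, with the G-box in capitals.
CCA1 (chr2:19245341-19245590, plus strand): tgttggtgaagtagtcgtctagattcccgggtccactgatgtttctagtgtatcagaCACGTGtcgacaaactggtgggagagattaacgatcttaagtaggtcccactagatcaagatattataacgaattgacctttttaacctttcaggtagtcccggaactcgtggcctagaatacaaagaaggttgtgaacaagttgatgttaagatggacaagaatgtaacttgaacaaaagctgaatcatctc
RVE1 (chr5:5692993-5693242, minus strand): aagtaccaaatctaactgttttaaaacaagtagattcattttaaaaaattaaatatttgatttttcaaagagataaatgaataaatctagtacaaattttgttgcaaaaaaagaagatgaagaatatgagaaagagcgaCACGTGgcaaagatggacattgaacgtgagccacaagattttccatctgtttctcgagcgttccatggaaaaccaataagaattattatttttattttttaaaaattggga

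For the other 5 genes with a G-box, the surrounding bases are shown so that the letters beside the element can be compared, with the G-box in capitals.
LHY (chr1:37934-37963, minus strand): ctacaatatcacCACGTGtcgatctgcgat
RVE2 (chr5:14753234-14753263, minus strand): gaagaaatcctcCACGTGtcattagcatct
RVE3, upstream (chr1:190312-190341, plus strand): acgatcgtattcCACGTGgcaatttatgtg
RVE3, downstream (chr1:190430-190457, plus strand): accggctccttaCACGTGttcggcttaa
RVE5 (chr4:535134-535163, plus strand): acgagaccctaaCACGTGtaaaggaaacaa
RVE8 (chr3:2946238-2946267, plus strand): actacaagtctaCACGTGcttcaagcttga

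The G-boxes lay at -193 in *CCA1*, -80 in *LHY*, -111 in *RVE1*, -163 in *RVE2*, -84 and 35 in *RVE3*, -52 in *RVE5* and 12 in *RVE8*, counted from the annotated start to the first base of the element. Read in either direction, the G-boxes of *CCA1*, *LHY*, *RVE1* and *RVE2* continued as CACGTGTC, which was present in 2.45% of all windows. *CCA1* and *LHY* shared the longer run CACGTGTCGA, present in 0.106% of windows, and *RVE1* and the upstream site of *RVE3* shared CACGTGGCAA, present in 0.281%. These longer runs were looked for after the sequences had been seen. *RVE4*, *RVE6* and *RVE7* had no G-box in either window. The other elements are shown next, with the evening element of *RVE7* and the CCA1-binding sites of *RVE2* and *RVE6* in capitals.
RVE7 (chr1:6308275-6308303, minus strand): taatcacaaaAAAATATCTtcttcataat
RVE2 (chr5:14753314-14753338, minus strand): acaattAAAAATCTccgacaagatt
RVE6 (chr5:21362313-21362342, minus strand): aacataaatggAAAAATCTttattataaag

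The values are the authors' deposited mean normalized counts, which are read counts divided by a size factor per library and averaged over the 8 libraries of a fit, and the authors' log2 fold changes with their standard errors. From these the level in each group was worked out, with an interval from a negative binomial model of the deposited errors. No value per library is given, so that the spread between the 2 replicates of a group enters only through the standard errors. A gene was called when its fold change was above 2 and its adjusted p under 0.01 in a two-sided Wald test with Benjamini-Hochberg adjustment over all genes, the thresholds of the study. The summed normalized counts of a group were 24190350 to 32505172 in the first fit and 28719530 to 32605572 in the second.

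The reads of the targeted genes did not serve to check the labels. The normalized count of *UBP22* (AT5G10790) averaged 414 in WT (L), 8345 in the libraries labelled *ubp22-1* and 4018 in those labelled *det1-1ubp22-1*, so that reads of this gene were not lost. The study bases the loss of function of this insertion line on immunoblots. These showed more monoubiquitinated histone H2B, which a reintroduced *UBP22* sequence reversed. Read counts do not show whether functional protein is made. Directions given here for the libraries labelled *ubp22-1* and *det1-1ubp22-1* rest on their labels. *DET1* (AT4G10180), which *det1-1* need not lower at the transcript level, was at 909 in WT (D), 1758 in *det1-1* (D), 1241 in WT (L) and 1107 in *det1-1* (L). The leaf genes *RBCS1A*, *LHCB2.1* and *RCA* and the root genes *CASP1* and *PHT1;1* were detected in every group. The sum of the 3 leaf genes was 103258 in WT (D) and 1047795 to 1894508 in the other 3 groups of the first fit, and the sum of the 2 root genes was 4305 in WT (D) and 1955 to 2155 in the others. Fewer cells of a type and less RNA per cell cannot be told apart in whole seedlings, and the part of tissue make-up in the results was not tested.

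*CCA1* (chr2:19245591-19248915, plus strand) encodes a dawn repressor of evening genes. Its mean normalized count was 1961 (modelled 95% interval 1609 to 2391) in WT (D), against 4607 (3784 to 5608) in WT (L), 3689 (3030.1 to 4492) in *det1-1* (D) and 3623 (2976 to 4412) in *det1-1* (L). *CCA1* was thus low in dark-grown WT, 0.89 below *det1-1* (L) on the log2 scale (standard error 0.29, adjusted p = 0.0055). No neighbours among the other 3 groups differed at an adjusted p under 0.01 in the Wald test. WT (L) lay 0.32 above *det1-1* (D) on the log2 scale (standard error 0.29, an upper bound). *det1-1* (D) lay 0.03 above *det1-1* (L) (standard error 0.21). The outer of the 3 groups, *det1-1* (L) against WT (L), were at -0.35 (standard error 0.20, adjusted p = 0.31 in the Wald test) and, in the second fit, at -0.36 (0.13, 0.041).

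*LHY* (chr1:33365-37871, minus strand), which encodes the closest relative of CCA1, did not share this pattern. Its count was 2767 (2283 to 3354) in WT (D), 2568 (2119 to 3113) in WT (L), 2043 (1685 to 2478) in *det1-1* (D) and 1462 (1205 to 1775) in *det1-1* (L). No pair of neighbours in this order differed at an adjusted p under 0.01, but the outer groups did, since *det1-1* (L) was 0.92 below WT (D) on the log2 scale (standard error 0.28, adjusted p = 0.003), which is under 2-fold. Per kb of exon, the ratio of *CCA1* to *LHY* was 0.891 in WT (D), 2.25 in WT (L), 2.27 in *det1-1* (D) and 3.11 in *det1-1* (L), so that *CCA1* exceeded *LHY* in the last 3 groups. In dark-grown WT the modelled intervals of the levels per kb overlapped, and the genes could not be ordered.

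*RVE1* (chr5:5690225-5692992, minus strand) encodes an activator of auxin synthesis genes, and its levels followed those of *CCA1*. The count was 1141 (916 to 1421) in WT (D), 3009.6 (2422 to 3740.2) in WT (L), 2967 (2387 to 3687) in *det1-1* (D) and 3315 (2668 to 4119) in *det1-1* (L). The intervals of the last 3 groups overlapped and lay above that of WT (D). The gene overlaps by 225 bases AT5G17305 on the opposite strand, which has no entry in the tables, and the strand setting of the read counting is not given in the sources used here.

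*RVE2* (chr5:14751344-14753088, minus strand) had the reverse pattern, with its highest level in dark-grown WT. The count was 4027 (3285 to 4936) in WT (D), 2122 (1729.5 to 2605) in *det1-1* (D), 864 (702 to 1064) in *det1-1* (L) and 505 (409 to 624) in WT (L). *RVE2* was alone among the 10 genes in that each step of this order had an adjusted p under 0.01, with log2 steps of 0.92, 1.30 and 0.77, of which the middle step was called.

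*RVE7* (chr1:6305814-6308243, minus strand) was highest in dark-grown *det1-1*. Its count was 3191 (2637 to 3862) in *det1-1* (D), 1319 (1087 to 1599.6) in *det1-1* (L), 745 (612 to 906) in WT (D) and 631 (518 to 768) in WT (L). Both *det1-1* groups lay above both WT groups, which did not differ from each other beyond the error. Of 2023 windows of 50 bases, the read length, in the *RVE7* transcripts, 52.4% also occur elsewhere in the genome, mostly in AT3G10113, a near copy on chromosome 3 with no entry in the tables. The *RVE7* counts are therefore uncertain. For the other 9 genes this share was 0, except 0.215% in *RVE2*.

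*RVE4* (chr5:648648-651979, plus strand), which encodes an activator of evening genes, had the highest level per kb of exon of the 10 genes in *det1-1* (D). Its count was 24574 (21306 to 28344) there, against 5770.5 (4999 to 6662) in WT (D), 2461 (2128 to 2845) in WT (L) and 2459 (2127 to 2844) in *det1-1* (L). The light-grown groups differed by 0.00 on the log2 scale (standard error 0.15), and the dark-grown groups stood above them and apart from each other.

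*RVE8* (chr3:2946239-2949017, plus strand), the best known activator of the group, varied less. Its count was 1319 (1117 to 1559) in *det1-1* (D), 1046 (884 to 1237) in WT (L), 895 (756 to 1059) in WT (D) and 656 (553 to 779) in *det1-1* (L). No neighbours in this order differed at an adjusted p under 0.01, whereas the first and last groups differed 2.01-fold.

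*RVE6* (chr5:21359001-21362273, minus strand) and *RVE5* (chr4:535198-538098, plus strand) were nearly level. The counts of *RVE6* were 330.5 in WT (L), 371 in *det1-1* (L), 383 in WT (D) and 481 in *det1-1* (D). Those of *RVE5* were 403, 411, 444 and 534 in the same order of groups. No comparison of these groups gave either gene an adjusted p under 0.01. *RVE5* overlaps by 681 bases AT4G01290 on the opposite strand, which was at a mean of 3116, with a log2 value of -0.56 (standard error 0.13) for WT (L) over WT (D).

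*RVE3* (chr1:190408-192436, plus strand) had the lowest level per kb of exon of the 10 genes in each of the 6 groups. Its count was 29.9 (21.2 to 42.1) in WT (D), against 141 (109 to 182) in WT (L), 226 (176 to 289) in *det1-1* (D) and 245 (191 to 313) in *det1-1* (L). Dark-grown WT stood apart, and no neighbours among the other 3 groups differed at an adjusted p under 0.01 in the Wald test. Of these, *det1-1* (D) lay 0.68 above WT (L) on the log2 scale, with a standard error of 0.38 that is an upper bound. The outer of the 3 groups, *det1-1* (L) against WT (L), were at 0.80 on the log2 scale (standard error 0.27, adjusted p = 0.028 in the Wald test). In the second fit this value was 0.79 (0.23, 0.0069), past the adjusted p but under 2-fold. The gene overlaps AT1G01510 on the same strand by 65 bases, and AT1G01510, at a mean of 839, was at 0.03 on the log2 scale (standard error 0.15) for WT (L) over WT (D) and at -0.50 (0.15) for *det1-1* (D) over WT (D).

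**Figure D1:**
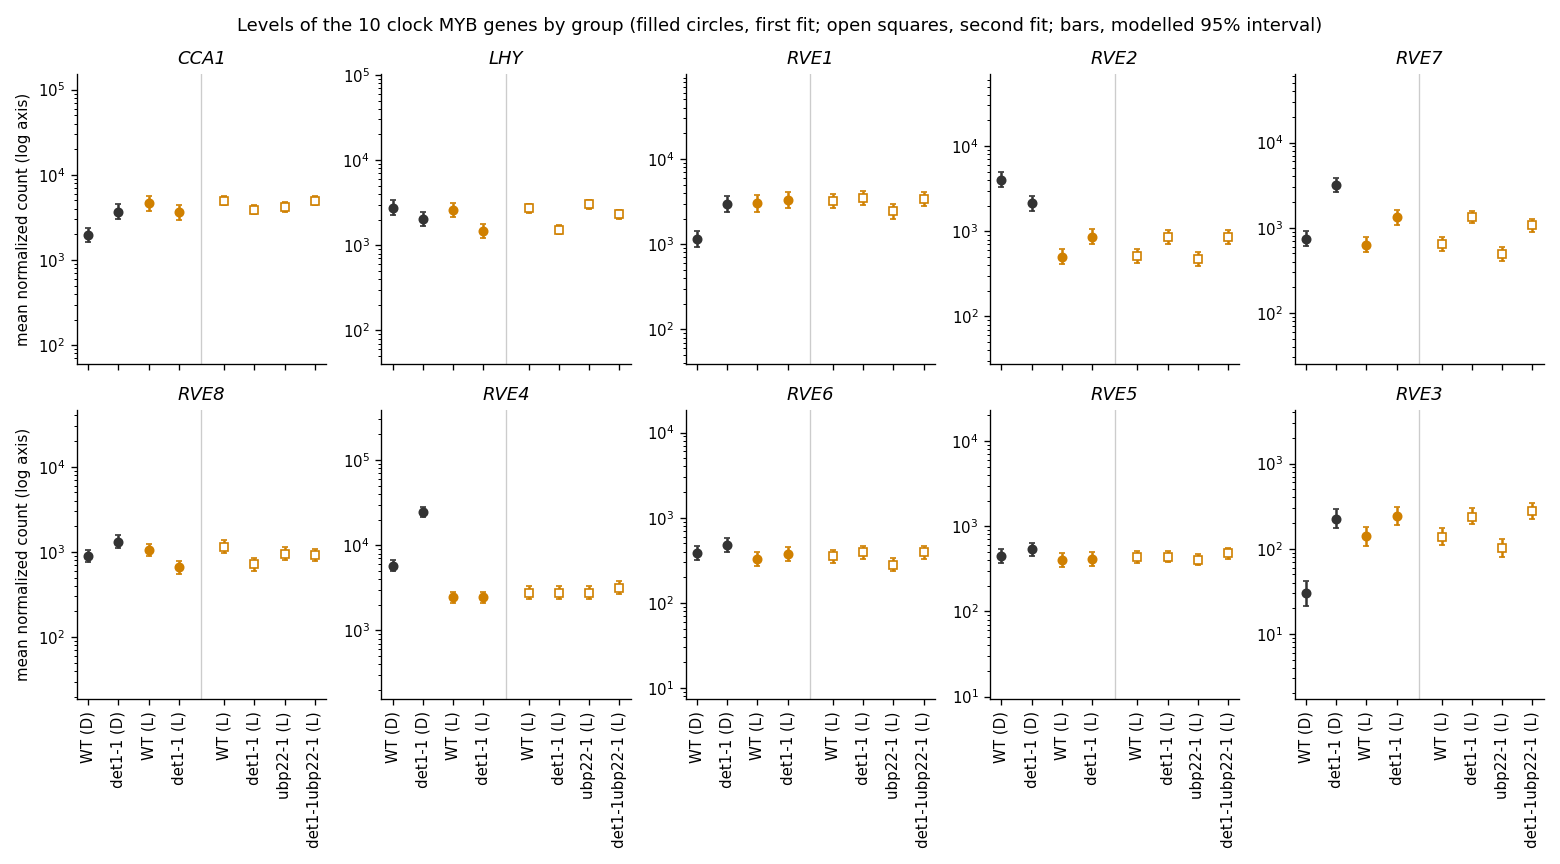
Mean normalized count (log axis) of each gene in the groups of the first fit (filled circles, WT and det1-1 in darkness in black and in light in orange) and of the second fit (open squares, 4 genotypes in light), with modelled 95% intervals. RVE4 is at 24574 in det1-1 (D), and CCA1, RVE1 and RVE3 are lowest in WT (D), at 1961, 1141 and 29.9.

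The make-up of the family differed between the groups on the scale of normalized counts per kb of exon. The 10 genes summed to 10139.7 in WT (D), 20061 in *det1-1* (D), 6844 in WT (L) and 6943 in *det1-1* (L). In WT (D), *RVE2* held 40.5% of the sum and *RVE4* 27.0%, whereas in WT (L) *CCA1* held 24.7%, *RVE1* 21.8% and *RVE4* 17.1%. In *det1-1* (D), *RVE4* held 58.1%, and within the RVE8 group (*RVE3*, *RVE4*, *RVE5*, *RVE6* and *RVE8*) its share was 90.4%, against 76.8% in WT (D), 56.1% in WT (L) and 58.1% in *det1-1* (L). Among *RVE1*, *RVE2* and *RVE7*, *RVE2* held 81.5% in WT (D) and *RVE1* 64.3% in WT (L). In *det1-1* (D) these 3 genes were closer, with 28.2% for *RVE1*, 41.6% for *RVE2* and 30.2% for *RVE7*. Since 52.4% of the *RVE7* windows also occur elsewhere in the genome, its level per kb is uncertain. The order of these 3 genes in *det1-1* (D), and the shares and sums that include *RVE7*, are therefore uncertain too. The sum of *CCA1* and *LHY* moved less, from 1529 in WT (D) to 2443 in WT (L).

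**Figure D2:**
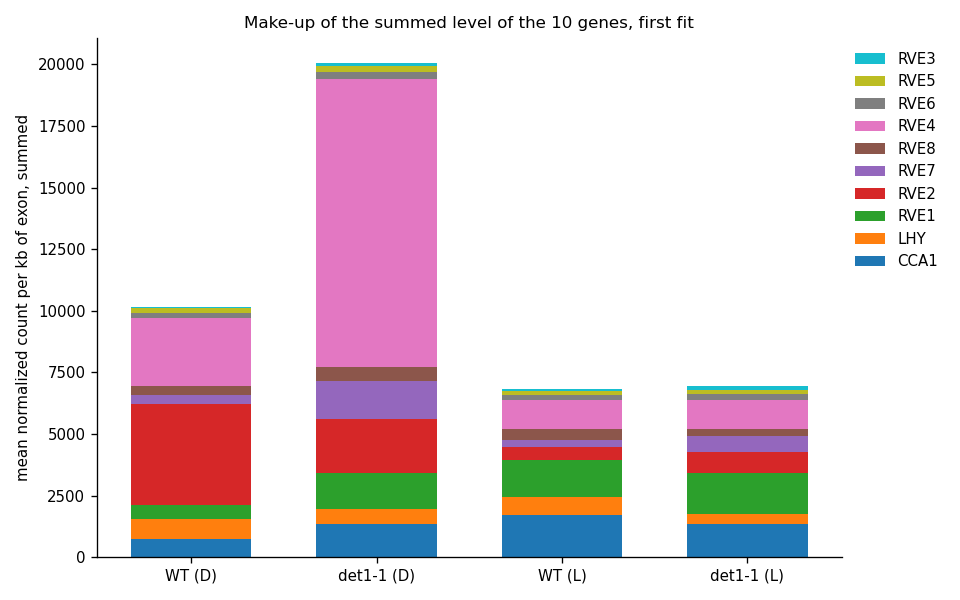
Stacked bars of the mean normalized count per kb of exon of the 10 genes in the 4 groups of the first fit, starting at 0. The bar of det1-1 (D) reaches 20061, of which RVE4 (pink) is 58.1%, while the bars of the light-grown groups reach 6844 and 6943.

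WT (L) was compared with WT (D) to describe how the family differed between light and darkness. *RVE2* fell 7.97-fold and *RVE4* 2.34-fold in light, while *RVE3* rose 4.70-fold, *RVE1* 2.64-fold and *CCA1* 2.35-fold. In log2 values, the changes were -2.99 (standard error 0.22, adjusted p = 2.2e-42) for *RVE2*, -1.23 (0.15, 1.8e-15) for *RVE4*, 2.23 (0.31, 2.3e-12) for *RVE3*, 1.40 (0.23, 3.1e-09) for *RVE1* and 1.23 (0.21, 7.9e-09) for *CCA1*. Members of the same subgroup therefore moved in opposite directions, *RVE1* against *RVE2* and *RVE3* against *RVE4*. The other 5 genes were between -0.24 for *RVE7* and 0.23 for *RVE8* on the log2 scale. Thus 3 of 10 genes were called higher and 2 lower, in a comparison that called 20.9% of all genes higher and 15.6% lower. The 10 genes had a median log2 value of -0.12, and all genes one of 0.02. The leaf genes named above also stood low in WT (D), and their part in the result was not tested. In a test against a change of at most 2-fold, *RVE2* and *RVE3* stayed called and *CCA1*, *RVE1* and *RVE4* did not. The share of all genes that stayed called in this test is not given, here or below. Counts of the 10 genes in it therefore cannot be compared with genes in general.

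In *det1-1* seedlings, light had another effect on most of these genes. Of the 10 genes, 0 were called higher in *det1-1* (L) against *det1-1* (D) and 4 were called lower, whereas 15.7% of all genes were called higher and 11.8% lower. *RVE4* fell 9.99-fold (log2 fold change -3.32, standard error 0.15, adjusted p = 1.2e-105), *RVE2* 2.46-fold (-1.30, 0.22, 1.1e-08), *RVE7* 2.42-fold (-1.28, 0.20, 1.4e-09) and *RVE8* 2.01-fold (-1.01, 0.18, 6.5e-08), the last just past the fold threshold. *CCA1*, *RVE1* and *RVE3*, which rose in WT, had log2 values of -0.03, 0.16 and 0.12, with standard errors of 0.21, 0.23 and 0.27. *LHY*, *RVE5* and *RVE6* were at -0.48, -0.38 and -0.38. An unadjusted p under 0.05 was reached by the called genes and by *LHY*, that is by 5 of 10 genes, against 57.2% of all genes. The median over the 10 genes was -0.43, against 0.05 over all genes. Only *RVE4* of the 10 genes stayed called in the test against a change of at most 2-fold.

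**Figure D3:**
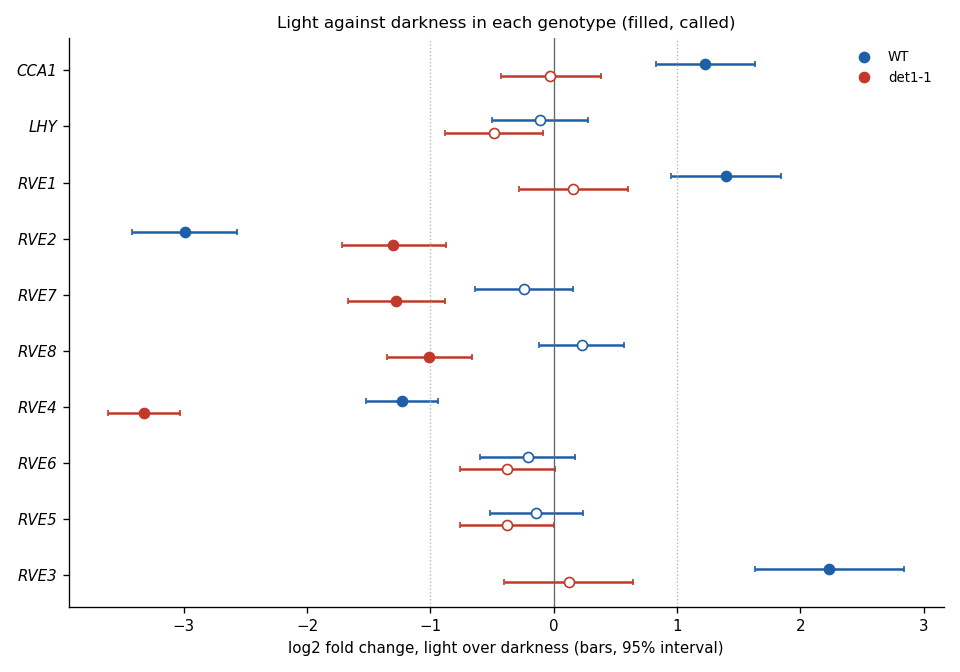
Log2 fold change of light over darkness in WT (blue) and in det1-1 (red) with 95% intervals, filled where called and dotted lines at a 2-fold change. CCA1, RVE1 and RVE3 lie at 1.23, 1.40 and 2.23 in WT and near 0 in det1-1, whereas RVE4 lies at -1.23 in WT and -3.32 in det1-1.

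The comparison of *det1-1* (D) with WT (D) asks what DET1 does in darkness. *RVE3* was 7.54-fold higher in *det1-1*, *RVE7* 4.29-fold, *RVE4* 4.26-fold and *RVE1* 2.60-fold. The log2 fold changes were 2.91 (standard error 0.31, adjusted p = 2.5e-20) for *RVE3*, 2.1 (0.20, 3.6e-24) for *RVE7*, 2.09 (0.15, 5.0e-43) for *RVE4* and 1.38 (0.23, 9.0e-09) for *RVE1*. *CCA1* at 0.91, *RVE2* at -0.92 and *RVE8* at 0.56 had adjusted p-values of 3.8e-05, 5.5e-05 and 0.0036 but stayed under 2-fold. *LHY* was at -0.44 (standard error 0.20), *RVE6* at 0.33 and *RVE5* at 0.27. In all, 4 of 10 genes were called higher and 0 lower, against 14.4% and 10.6% of all genes, with a median of 0.74 against 0.00 over all genes. An adjusted p under 0.01, with no fold threshold, was reached by 7 of the 10 genes and by 40.0% of all genes. *RVE1* was not called in the test against a change of at most 2-fold. In the same comparison *RBCS1A*, *LHCB2.1* and *RCA* were at 3.04, 3.95 and 4.35 and the root genes *CASP1* and *PHT1;1* at -2.64 and 0.59, and their part in the result was not tested.

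In light, *det1-1* differed from WT in fewer of these genes. *RVE7* alone was called, at a log2 fold change of 1.06 (standard error 0.20, adjusted p = 8.0e-06), that is 2.09-fold higher in *det1-1* (L). Thus 1 of 10 genes was called higher and 0 lower in the first fit, against 2.20% and 1.01% of all genes. *LHY* at -0.81 (adjusted p = 0.0012), *RVE8* at -0.67 (0.0026) and *RVE2* at 0.77 (0.0059) were past the adjusted p but under 2-fold, and *RVE3* was at 0.80 with an adjusted p of 0.028. *RVE5*, *RVE1* and *RVE6* were at 0.03, 0.14 and 0.17, and *CCA1* was at -0.35. The call of *RVE7* was lost in the test against a change of at most 2-fold, in both fits.

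**Figure D4:**
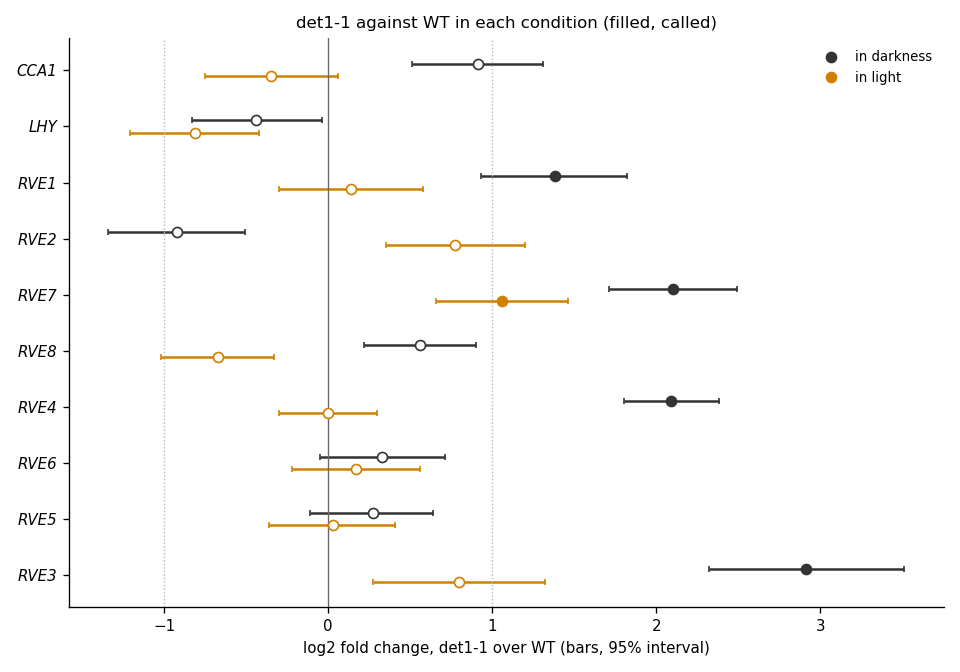
Log2 fold change of det1-1 over WT in darkness (black) and in light (orange, first fit) with 95% intervals, filled where called and dotted lines at a 2-fold change. RVE4 lies at 2.09 in darkness and at 0.00 in light, and RVE2 at -0.92 in darkness and 0.77 in light.

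The difference between these effects was tested directly, by subtracting the *det1-1* effect in light from that in darkness, which equals the response to light in WT minus that in *det1-1*. It was positive and called for 6 of the 10 genes and negative and called for 1, against 8.91% and 6.75% of all genes. On the log2 scale the difference was 2.12 (standard error 0.41, adjusted p = 2.6e-06) for *RVE3*, 2.09 (0.21, 4.2e-21) for *RVE4*, 1.26 (0.29, 1.3e-04) for *CCA1*, 1.24 (0.32, 8.1e-04) for *RVE1*, 1.23 (0.25, 8.3e-06) for *RVE8*, 1.04 (0.29, 0.0019) for *RVE7* and -1.70 (0.30, 3.8e-07) for *RVE2*. *LHY*, *RVE5* and *RVE6* were at 0.37, 0.24 and 0.17 with standard errors of 0.28, and their 95% intervals of -0.18 to 0.93, -0.30 to 0.78 and -0.38 to 0.71 lie within a 2-fold difference. *RVE8* was therefore called although its separate effects of *det1-1*, 0.56 in darkness and -0.67 in light, were each under 2-fold. The median was 1.13 over the 10 genes and 0.00 over all genes. Against a difference of at most 2-fold, *RVE4* alone of the 10 genes stayed called. The 3 leaf genes had interactions of 2.13 to 4.41, *CASP1* one of -2.50 and *PHT1;1* one of 0.73, and their part in the result was not tested.

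The diagonal pairs of groups completed the order of the levels. *det1-1* (D) exceeded WT (L) in *RVE4* (log2 difference 3.32, standard error 0.21), *RVE7* (2.34, 0.29) and *RVE2* (2.07, 0.30), so that 3 of 10 genes were called higher and 0 lower, against 11.6% and 13.3% of all genes. The remaining 7 genes lay between -0.33 for *LHY* and 0.68 for *RVE3*. Against WT (D), *det1-1* (L) was higher in *RVE3* (3.03, 0.40) and *RVE1* (1.54, 0.32) and lower in *RVE2* (-2.22, 0.30) and *RVE4* (-1.23, 0.21), that is 2 of 10 genes in each direction, against 20.8% of all genes called higher and 15.1% lower. Errors of these pairs are upper bounds, since they were derived through another group.

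The second fit sets 4 light-grown genotypes beside each other and uses the WT (L) and *det1-1* (L) libraries again. In it, *RVE7* was again the 1 gene of 10 called higher in *det1-1* (L), at 1.06 (standard error 0.18, adjusted p = 3.7e-07), and 0 were called lower, against 2.33% and 1.22% of all genes. The fold changes of the 10 genes differed from those of the first fit by at most 0.009 on the log2 scale, as they rest on the same libraries. The standard errors differed more. That of *LHY* was 0.20 in the first fit and 0.13 in the second, where its log2 fold change was -0.82 (adjusted p = 1.1e-08).

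In the libraries labelled *ubp22-1*, none of the 10 genes was called in the Wald test, with 0 higher and 0 lower against 0.0848% and 0.0312% of all genes. *RVE7* alone, at -0.38 (standard error 0.19), had an unadjusted p under 0.05, which 3.50% of all genes reached, and the adjusted p of each of the 10 genes was 1.000. The levels were close to those of WT (L), for example 4174 against 4987 for *CCA1*, 3015 against 2704 for *LHY* and 2761 against 2784 for *RVE4*. *LHY*, at 0.16, was the only gene of the 10 with a value above 0, the others lying between -0.45 for *RVE3* and -0.01 for *RVE4*. The 95% intervals of all 10 genes stayed within a 2-fold change in either direction.

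In the libraries labelled *det1-1ubp22-1*, *RVE3* was called higher than in WT (L), 2.01-fold (log2 fold change 1.00, standard error 0.23, adjusted p = 3.6e-04). It was the 1 gene of 10 called higher, with 0 lower, against 1.42% and 0.848% of all genes, and lay at the fold threshold, so that its call was lost in a test against a change of at most 2-fold. *RVE7* and *RVE2* were both at 0.74 (adjusted p = 0.0013 and 0.0027), and *LHY* was at -0.22 (standard error 0.13) with a count of 2316 against 2704 in WT (L) and 1530.2 in *det1-1* (L). Set against *det1-1* (L), with errors derived through WT (L) that are upper bounds, 0 of the 10 genes were called higher and 0 lower in the Wald test, and 0.00893% of all genes were called higher and 0.00893% lower. *LHY* alone had an unadjusted p under 0.05 there, at 0.60 (standard error 0.18, unadjusted p = 9.8e-04, adjusted p = 0.92), and 1.67% of all genes did. *CCA1* was at 0.35 (0.19), *RVE8* at 0.36 (0.25) and *RVE7* at -0.32 (0.26). Their 95% intervals, -0.01 to 0.72, -0.14 to 0.86 and -0.83 to 0.19, lie within a 2-fold difference.

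Set against the libraries labelled *ubp22-1*, the double mutant had higher *RVE3* (1.45, standard error 0.33, adjusted p = 7.2e-04) and *RVE7* (1.12, 0.26, 9.3e-04), that is 2 of 10 genes called higher and 0 lower, against 1.52% and 0.607% of all genes. *RVE2* was at 0.84 (adjusted p = 0.041) and *RVE6* at 0.47 (0.37). Neither call held in a test against a change of at most 2-fold. The summed level per kb of exon of the 10 genes was 7343 in WT (L), 7354 in *det1-1* (L), 6478 in the libraries labelled *ubp22-1* and 8112 in those labelled *det1-1ubp22-1* in this fit.

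**Figure D5:**
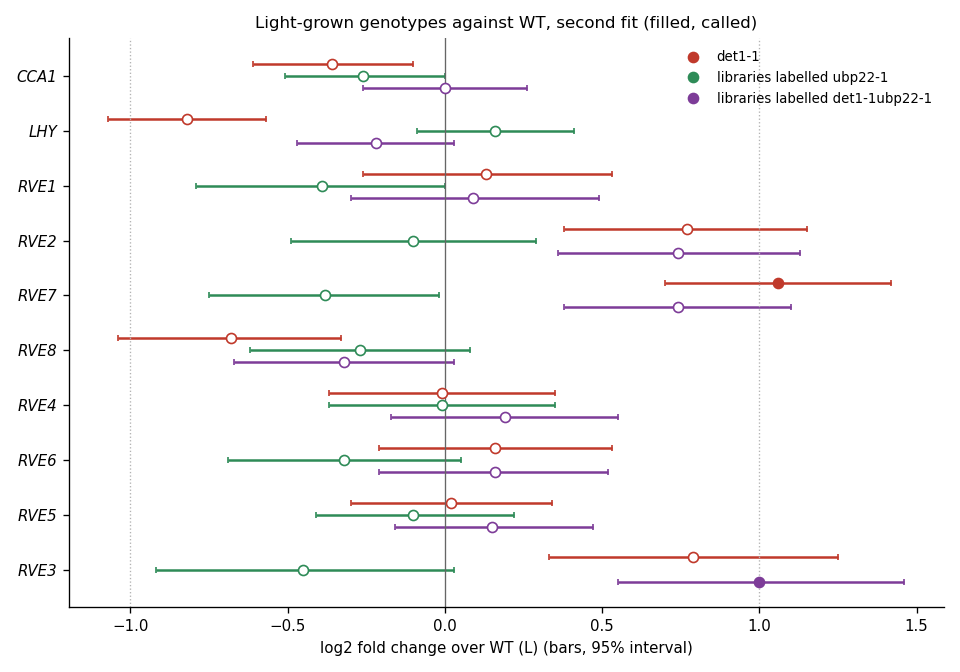
Log2 fold change over WT (L) in the second fit for det1-1 (red) and for the libraries labelled ubp22-1 (green) and det1-1ubp22-1 (purple), with 95% intervals, filled where called and dotted lines at a 2-fold change. RVE7 in det1-1 (1.06) and RVE3 in det1-1ubp22-1 (1.00) are the filled points, and LHY lies at -0.82, 0.16 and -0.22.

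Genes that work with the clock MYBs were described by their counts. A list of 10 evening genes was drawn from general knowledge of targets of these MYBs through evening elements, and binding was not tested here. Of these 10 genes, 0 were called higher and 5 lower in WT (L) against WT (D), against 20.9% and 15.6% of all genes, with a median log2 fold change of -1.42 against 0.02 over all genes. *COR27*, a cold-regulated evening gene, was at -7.73 (standard error 0.54), *BOA* at -6.45 (0.35) and *TOC1* at -2.72 (0.16). In *det1-1* (D) against WT (D), 4 were higher and 1 was lower, against 14.4% and 10.6% of all genes. The higher genes were led by *FKF1* at 3.17 (0.26), *PRR5* at 2.97 (0.24) and *ELF4* at 2.63 (0.28). *COR27* at 2.31 was the other higher gene and *BOA* at -1.08 (0.20) the lower one, both named after their values were seen. In *det1-1* (L) against WT (L) in the second fit, 6 of 10 were higher and 0 lower, against 2.33% and 1.22% of all genes, with a median of 1.16 against -0.01 over all genes. The higher genes were led by *COR27* at 3.74 (0.73), *FKF1* at 3.17 (0.39) and *PRR5* at 2.33 (0.43). *COR27* had a mean of only 20.8 in this fit. *GRP7* and *GRP8*, which encode RNA-binding proteins, were not called there, at 0.64 and 0.27. In the libraries labelled *ubp22-1* 0 of 10 were called, against 0.0848% of all genes higher and 0.0312% lower, and in those labelled *det1-1ubp22-1* 5 were higher and 0 lower, against 1.42% and 0.848% of all genes, with a median of 0.88. The interaction of genotype and light was called for 1 of these 10 genes, *BOA*, at -1.96 (0.46), against 8.91% of all genes called positive and 6.75% negative.

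Among 5 genes listed as repressors of *CCA1* or *LHY*, 3 were higher and 0 lower in *det1-1* (D) against WT (D), where 14.4% and 10.6% of all genes were called. These were *PRR5*, *PRR7* at 2.53 (standard error 0.17) and *PRR9* at 2.26 (0.30), in the same comparison in which *CCA1* was at 0.91 and *LHY* at -0.44. In WT (L) against WT (D), which called 20.9% of all genes higher and 15.6% lower, *PRR9* was higher at 1.90 (0.30), *TOC1* was lower, and *PRR7* was at 0.03 (0.18). In *det1-1* (L) against WT (L) in the second fit, 2 of the 5 were higher and 0 lower, against 2.33% and 1.22% of all genes. These were *PRR5* at 2.33 (0.43) and *TOC1* at 1.21 (0.18). The interaction was positive and called for 3 of the 5, *PRR7* at 1.96 (0.25), *PRR9* at 1.49 (0.42) and *TCP21* at 1.28 (0.27). It was negative and called for 0, against 8.91% and 6.75% of all genes. Of 4 LNK coactivators, 3 were higher and 0 lower in *det1-1* (D) against WT (D), beside the same shares of 14.4% and 10.6% of all genes. *LNK2* was at 2.13 (0.15), *LNK1* at 1.36 (0.21) and *LNK4* at 1.11 (0.20), and *LNK3* was at -0.69 (0.21). The interaction was positive and called for 2 of the 4 LNK genes and negative and called for 0, against 8.91% and 6.75% of all genes. *LNK2* was at 2.66 (0.21) and *LNK4* at 1.37 (0.28), beside 2.09 for *RVE4*. *LNK1* and *LNK3*, at 0.73 and 0.06, were not called. In WT (L) against WT (D), *LNK1* and *LNK2* were higher, at 1.54 (0.21) and 1.03 (0.15).

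Of 5 growth and greening genes under RVE1 or clock control, 2 were higher and 2 lower in WT (L) against WT (D), against 20.9% and 15.6% of all genes. *PORA*, which encodes a protochlorophyllide reductase of etiolated seedlings, was called lower with a standard error of 1.85 on the log2 scale, too wide for a fold to be given. *CDF1*, which encodes a repressor of flowering, was at 2.93 (0.30) and the auxin synthesis gene *YUC8*, a known target of RVE1, at -2.74 (0.23), while *RVE1* itself was at 1.40. In *det1-1* (D) against WT (D), 1 of the 5 was higher and 2 were lower, against 14.4% and 10.6% of all genes, with *PIF5* at 1.24 (0.13), *YUC8* at -2.1 (0.22) and *RVE1* itself at 1.38. In *det1-1* (L) against WT (L), 0 of these 5 genes were called in either fit, against 2.20% higher and 1.01% lower of all genes in the first. Of 9 other clock regulators, 0 were higher and 3 lower in WT (L) against WT (D), against the 20.9% and 15.6% of all genes, with *PRR3* at -3.71 (0.28), *ELF3* at -2.63 (0.17) and *CKB3* at -1.40 (0.14). In *det1-1* (D) against WT (D), *ZTL*, which encodes an F-box protein that targets TOC1, was higher at 1.83 (0.17), and *ELF3* was lower at -1.14 (0.17), 1 gene in each direction against 14.4% and 10.6% of all genes. In *det1-1* (L) against WT (L) 0 of the 9 were called in either fit, against 2.20% and 1.01% of all genes in the first.

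Similarity of the levels over the 6 conditions was described by the root mean square difference of log2 levels, centred for each gene. Among pairs of the 10 genes it was smallest for *RVE5* and *RVE6*, at 0.12, which both varied little, then for *CCA1* and *RVE1*, at 0.23. Of 17164 genes whose mean count reached 50 in both fits, those closest to *RVE1* were AT3G23570 at 0.050, *HMA1* (AT4G37270), which encodes a metal-transporting ATPase of the chloroplast envelope, at 0.075 and AT2G21210 at 0.077. Closest to *CCA1* were *EXO70E2* (AT5G61010), which encodes an exocyst subunit, at 0.065, AT3G03500 at 0.085 and AT5G54780 at 0.098. Closest to *RVE8* were AT5G54145 at 0.099, AT5G12950 at 0.108 and AT4G31060 at 0.114. With 6 conditions, these are the nearest of many genes and describe the patterns only.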

How the data were processed

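RNA of 12 libraries in 6 groups of 2 was sequenced by the authors, who mapped the reads to TAIR10 with STAR and counted them per gene with HTSeq. The submitters' processing notes also name CASAVA 1.8 and DESeq2. DESeq2 was fitted by the authors to 8 libraries at a time, and 4 libraries were used in both fits. The 7 deposited tables hold finished comparisons. The deposited signal is the mean normalized count over the 8 libraries of a fit. The authors' log2 fold changes have a standard error each, both taken from that model. The deposited score is the Wald statistic. The authors' p-values are two-sided and adjusted by the Benjamini-Hochberg method. Comparisons deposited as darkness over light were turned, and a total over all genes in each table was left out.

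The Wald p was recomputed from each fold change and its standard error, with adjustment over the whole table. Calls from it and from the deposited values differed in 0 genes of the 7 comparisons. Group means and dispersions were recovered with a negative binomial model. For comparisons with no table, fold changes were added or subtracted and the errors of their parts combined. Errors of pairs are upper bounds, while that of the interaction is not. The tables hold no value per library, so the depth of each library is unknown and precision is that of the standard errors. Intervals of levels are modelled and rest on the deposited errors.

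The 10 members, the lists of partner genes and the tests were chosen with earlier results of these data known. Named genes are the 10 members, *DET1*, *UBP22*, AT3G10113, from each list and comparison up to 3 called genes with the largest change and up to 2 not called with the highest mean, and the 3 genes closest to *CCA1*, *RVE1* and *RVE8*. The overlap partners AT5G17305, AT4G01290 and AT1G01510, and *COR27* and *BOA* in *det1-1* (D) against WT (D), are named outside this rule, as are tissue markers beside a result. The symbol of 1 listed evening gene was not paired by the reference and was left out. RefSeq does not name *RVE5* and *RVE6*. Promoters, gene positions and read-length windows come from the RefSeq TAIR10.1 assembly, whose annotation may differ from that of the authors. Protein sequences were not analysed here. The steps used Python 3.11.15 with SciPy 1.17.1, NumPy 2.4.6, pandas 2.3.3 and matplotlib 3.10.9 and were tested on simulated data. The alternatives were an adjusted p under 0.05, no fold threshold, a mean of at least 10, recentring on the median, a test whose null is a change of up to 2-fold, a t distribution (4 degrees of freedom), the deposited adjusted p, a modelled variance and the other fit.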

Additional observations from a re-analysis of the deposited data

Results flagged for a closer look

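What *det1-1* changed in darkness differed from what it changed in light in 7 of the 10 genes, by the Wald test of the interaction of genotype and light. That test called 8.91% of all genes positive and 6.75% negative. Against a difference of at most 2-fold, *RVE4* alone of the 10 genes stayed called, and the share of all genes in that test is not given. With a t distribution of 4 degrees of freedom, 0 of all genes were called for the interaction. The effect in darkness minus that in light was 1.26 on the log2 scale for *CCA1*, 1.24 for *RVE1*, -1.70 for *RVE2*, 2.12 for *RVE3*, 2.09 for *RVE4*, 1.04 for *RVE7* and 1.23 for *RVE8*. Each of these values is also the difference of the light response between WT and *det1-1*. *RVE2* was the only one of the 7 whose difference was negative. The *RVE7* counts are uncertain because much of its sequence also occurs in a near copy, and *RVE3* had few counts in WT (D), at 29.9. Single libraries could not be examined for values far from their group, since the tables give none.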

How the results depend on the processing

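No paired analysis was possible because the tables hold no value per library, and for the same reason leaving out each replicate was not run. The 120 fold changes of the 10 genes kept their direction and their side of the thresholds at an adjusted p under 0.05, with a mean of at least 10 and after recentring on the median, as did 70 of 70 with the deposited adjusted p, 50 of 50 with modelled variances and 10 of 10 in the other fit. With no fold threshold, the number of the 10 genes called rose to 7 in *det1-1* (D) against WT (D), 4 and 5 in *det1-1* (L) against WT (L) in the first and second fit, 3 in *det1-1ubp22-1* (L) against WT (L) and 7 in *det1-1* (L) against WT (D). In the same order, the shares of all genes with an adjusted p under 0.01 were 40.0%, 7.59%, 11.5%, 7.49% and 43.8%. In a test against a change of at most 2-fold the number of the 10 genes called fell to 2 in WT (L) against WT (D), 3 in *det1-1* (D) against WT (D), 1 in *det1-1* (L) against *det1-1* (D), 0 in *det1-1* (L) against WT (L) in either fit, 0 in *det1-1ubp22-1* (L) against WT (L), 1 for the interaction, 0 in *det1-1ubp22-1* (L) against *ubp22-1* (L) and 2 in *det1-1* (L) against WT (D). The share of all genes called in that test is not given here. A t distribution of 4 degrees of freedom called 3741 of all 22318 genes in WT (L) against WT (D) and 897 in *det1-1* (D) against WT (D). With it, the number of the 10 genes called was 2 in the former, *RVE2* and *RVE4*, and 1 in the latter, *RVE4* with an adjusted p of 0.0077. It was 0 in the other 10 comparisons, in which that test called 0 of all genes, the smallest adjusted p of a member for the interaction being 0.037 for *RVE4*. The depth per library is unknown.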
